A study of Oryza sativa with 8 samples.

Results

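The array carried 510 probes named for rice microRNAs, taken by the prefix osa- of their names and by nothing measured, out of 42477 probes that are not controls. By the number in the name they fell into 45 microRNA families and 170 precursors. The roots at 1 mM NH4Cl (4 arrays) were set against the roots at 0.005 mM NH4Cl (4 arrays). All 8 samples were whole roots of rice, cultivar Koshihikari, with 10 days of growth in the named ammonium chloride concentration, and no genetic change is named for either group. Each array was hybridised with Cy3-labelled RNA of 1 biological replicate. All 4 arrays at 1 mM lay on one slide and all 4 at 0.005 mM on another, so a slide effect and an effect of the concentration cannot be told apart here. In RNA from whole roots, fewer cells of a type and less RNA per cell are likewise not separable.

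Plant microRNAs are short RNAs cut by the enzyme DCL1 from hairpins within longer precursor transcripts. RNA polymerase II makes those precursors, which are capped and polyadenylated like messenger RNAs, and the mature microRNA then guides an ARGONAUTE protein, mostly AGO1, to complementary messenger RNAs. Precursors that give the same or nearly the same mature sequence form a family, and members of a family usually share their targets. Several families are known from roots of Arabidopsis or rice for responses to nitrogen, phosphate, sulfate or copper supply.

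Each precursor had 3 probes, named 5'seq, Mature and 3'seq, and each probe had 2 spots on every array. The names place the first and last of these on the stretches at either side of the mature microRNA, here called the flanks. The labelling kit primes cDNA from poly(A) tails, so the signals are read here as those of polyadenylated precursor transcripts, and no level of a mature microRNA is taken from them. The files used here hold no probe sequences, so none is shown, and which probes of a family share sequence was not tested. Of the 510 probes, 356 were annotated with the microRNA's name alone, 96 with a RAP transcript and 58 with another accession.

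A level below is the log2 processed signal minus the 75th percentile of its array, so a level of 0 is that percentile. A change is the mean level at 1 mM minus that at 0.005 mM, with limma's SE and n = 4 arrays per group. Tested were probes whose spots stood well above background on 4 or more of the 8 arrays, and a probe was called where limma's p, adjusted over all 24969 units of the array, was below 0.05. Levels of different probes depend on the probe as well as on the RNA and are not compared as amounts.

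At 1 mM all 11 tested probes of the miR169 precursors g to m were higher. All 11 were well above background on all 4 arrays at 1 mM, but only 4 of them on all 4 at 0.005 mM, so most passed the filter mainly through the group in which they were high. Over the whole miR169 family 13 of 20 tested probes were higher, against 32.2% of all units of the array. Lower at 1 mM were 22 of 27 tested probes of miR166 and 6 of 7 of miR159, against 43.8% of all units. In the miR156 precursors a to d 7 of 8 were lower, but over the whole miR156 family 9 of 20, near that share. Both groupings by precursor letter were made after the values were seen. Several probes of a precursor enter these counts, whereas any other locus enters the shares of all units by its brightest probe only. In most other families probes moved in both directions, by little, or not beyond the threshold. Over all microRNA-named probes, calls were less frequent than over the array as a whole.

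Few of these probes gave a clear signal. Between 30.4% and 39.4% of their spots were well above background on an array, against 81.4% to 85.1% of all non-control spots, and no non-control spot was saturated. On all 4 arrays at 1 mM 145 probes were well above background, and 152 were on all 4 arrays at 0.005 mM. Both held for 132 probes, while 211 were well above background on no array. The filter left 182 probes (35.7%) to test. Flank probes passed more often than Mature probes, with 70 of 170 5'seq, 76 of 170 3'seq and 36 of 170 Mature probes tested. Of the 96 probes annotated with a RAP transcript 68 were tested, and of the 356 with only a microRNA name 94 were.

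Control probes give a scale for these low signals. The array's 12 probes labelled random and 12 labelled artificial had median levels of -9.59 and -9.77 at 1 mM, and -9.62 and -9.65 at 0.005 mM. Of these 24, only 2 random probes passed the filter, and neither was called. The brightest random probe averaged -6.64 at 1 mM and -6.84 at 0.005 mM. Of the 182 tested microRNA-named probes, 144 lay above it at 1 or both concentrations and 38 did not. The untested microRNA-named probes had median levels of -9.59 at 1 mM and -9.55 at 0.005 mM, close to those of the random probes.

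Of the 45 families, 27 had a probe well above background on all 4 arrays at 1 mM and 29 on all 4 arrays at 0.005 mM. The same 29 families had a tested probe. The other 16 families, with 129 probes, had none. Among them were miR172, which targets AP2-type flowering regulators, and miR390, which starts the production of small RNAs against auxin response factors. They also held miR397, which targets laccases. The largest was miR395, known in Arabidopsis for its induction by sulfate shortage and for targeting ATP sulfurylase and a sulfate transporter. Its 69 probes, from 23 precursors, all failed the filter, and 53 of them were well above background on no array. The other untested families were 413, 415, 417, 420, 426, 435, 437, 438, 443, 445, 446 and 530. For families 417, 420 and 438, no probe was well above background on any array.

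At 1 mM, 39 of the 182 tested probes (21.4%) were higher and 63 (34.6%) were lower, and 80 were not called. Over all 24969 units of the array 32.2% were higher and 43.8% were lower, so both shares were below the background. Called in either direction were 102 microRNA-named probes (56.0%), against 76.1% of all units. Changes of at least 2-fold were found for 19 probes that were higher (10.4%, against 9.85% of all units) and for 39 that were lower (21.4%, against 8.67%). Of the 19 higher probes 12 were of miR169, and of the 39 lower ones 19 were of miR166. Several probes of a precursor enter these shares, whereas any other locus enters by its brightest probe only, so the shares are of unlike units. Arrays of the 2 concentrations did not overlap for 88 probes (48.4%), against 71.6% of all units. The median change was -0.11 over the tested probes and -0.09 over all units.

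The split between higher and lower calls depended on how the arrays were scaled. It was 39 higher and 63 lower as reported, 22 and 88 with no scaling, and 20 and 97 when the arrays were scaled to their spike-in controls. These 2 alternatives moved the median of all units to -0.36 and -0.47. Over all 24969 units, 8050 were higher and 10945 lower as reported, 4883 and 14733 with no scaling, and 4021 and 16078 with spike-in scaling. With normexp background correction and the same 75th percentile scaling, 69 probes were higher and 47 lower, beside 8996 and 9899 of all units. With that setting the at least 2-fold calls were 4 higher and 8 lower, and with normexp and quantile normalization they were 2 higher and 9 lower. Both normexp settings add an offset of 50 to each signal, which by itself brings log2 changes of dim probes nearer to 0. Among 70 probes picked by a fixed rule (large changes, bright probes and families of mineral supply), 31 were called with changes of at least 2-fold, and 7 of them were still at least 2-fold with both normexp settings. These 7 were miR156d 5'seq, both flanks of miR166a, miR169m 5'seq, both flanks of miR171f and miR419 5'seq. Of the 102 called probes, 66 kept their direction and their call under every alternative that kept the probe. For the other 36, of which 6 had changed by at least 2-fold, a call ended or a sign turned under at least 1 alternative, and those of named probes are given beside their values. No called probe was called in the other direction under any alternative.

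Agreement within families was limited. Of the 29 families with a tested probe, 22 had a called probe. Among the 21 families with at least 2 tested probes, 11 had probes called in both directions, and 7 had probes called in 1 direction beside others not called. In 3 of them, miR162, miR408 and miR531, none was called. In no family with at least 2 tested probes were all of them called in 1 direction. The calls in both directions depended on the scaling. With spike-in scaling every higher call of miR159, miR164, miR171, miR393, miR399, miR439 and miR441 ended or its sign turned. In miR156, miR160, miR166 and miR169 calls in both directions held with that scaling.

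Within precursors, calls of both flanks had the same direction. For 49 precursors both flank probes were tested. Both were called in 20 of them, in the same direction in all 20. For ordinary loci with 2 probes called the directions were opposite in 1.46% of 4999 pairs. Of all 93 pairs of tested probes of 1 precursor, Mature probes included, both were called in 36, with opposite directions in 2. These were the Mature and 5'seq probes of miR160e and of miR166h. In 19 precursors 1 flank was called and in 10 neither was. The difference between the flanks changed with the ammonium supply without overlap of the arrays in 15 of 49 precursors (30.6%), against 21.3% of 6977 pairs of probes of ordinary loci. The median size of that difference of changes was 0.26, against 0.06 for the pairs of ordinary loci, whose signals were not matched to these. It was above 1 in 8 precursors.

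The miR169 family, whose targets are subunits of the transcription factor NF-Y (NF-YA), stood out by its number of higher probes. In Arabidopsis its precursors are known to fall under nitrogen shortage. Of its 48 probes 20 were tested, 13 were higher, 1 was lower and 6 were not called at 1 mM. The higher probes were 65.0% of those tested, against 32.2% of all units. Those higher by at least 2-fold were 60.0%, against 9.85%. All 11 tested probes of precursors g, h, i, j, l and m were higher by at least 2-fold, with a median change of 1.79 and a range of 1.27 to 2.51. With normexp and quantile normalization 10 of them were called higher and 1 was at least 2-fold higher (median change 0.61), and with normexp and 75th percentile scaling 11 and 3 (median change 0.82). No probe of the k precursor was tested. This split by letter was made after the values were seen. The 11 are only those of 21 probes of precursors g to m that passed the filter, and just 4 of them were well above background on all 8 arrays.

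The largest fitted increase was at the 5'seq probe of miR169m on chromosome 8, with levels of -5.04, -4.88, -5.38 and -4.75 at 1 mM, against -7.65, -7.45, -7.64 and -7.34 at 0.005 mM. This is a change of 2.51 ± 0.14 (SE, adjusted p = 1.1e-06), and the groups lay far apart. The probe was well above background on 3 of 4 arrays at 0.005 mM, and with normexp its change was 1.04 or 1.21. For miR169i, also on chromosome 8, the 5'seq probe had levels of -4.89, -4.43, -4.47 and -4.91 at 1 mM, against -6.48, -6.65, -6.90 and -6.62 at 0.005 mM, a change of 1.99 ± 0.14 (SE, adjusted p = 4.0e-06). All 4 arrays at 1 mM again exceeded all 4 at 0.005 mM. Its 3'seq probe had levels of -6.27, -5.89, -5.93 and -6.40 at 1 mM, against -7.97, -8.79, -8.86 and -8.44 at 0.005 mM, and was well above background on no array at 0.005 mM. In the processed signal it was 4.40-fold higher at 1 mM (adjusted p = 1.4e-05). For that fold, levels below the dimmest signal well above background were raised to it. With normexp its change was smaller, 0.61 (quantile normalization) or 0.82 (75th percentile scaling).

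On chromosome 9 the 3'seq probe of miR169j likewise was well above background at 1 mM only, with -6.73, -6.54, -6.71 and -7.16 at 1 mM, against -9.08, -9.29, -9.15 and -8.94 at 0.005 mM. In the processed signal, with levels raised as for miR169i, it was 3.44-fold higher (adjusted p = 1.4e-06). With normexp its change was smaller, 0.42 (quantile normalization) or 0.64 (75th percentile scaling). Its mean at 1 mM lay below that of the brightest random probe, -6.64. Well above background on all 8 arrays, the 5'seq probe of that precursor had -5.49, -5.23, -5.33 and -5.67 at 1 mM, against -7.22, -7.14, -7.26 and -7.21 at 0.005 mM, a change of 1.78 ± 0.09 (SE, adjusted p = 7.3e-07). Both probes of miR169h had groups that did not overlap, with changes of 1.79 ± 0.13 (SE, adjusted p = 4.9e-06) at the 5'seq and 1.61 ± 0.15 (SE, adjusted p = 1.9e-05) at the 3'seq probe. In miR169l the 3'seq probe changed by 1.91 ± 0.15 (SE, adjusted p = 8.9e-06) without overlap. Its 5'seq probe, at -5.20, -5.49, -5.58 and -6.06 at 1 mM, against -5.93, -7.07, -7.27 and -7.12 at 0.005 mM, changed by 1.27 ± 0.31 (SE, adjusted p = 0.0057), and replicate 1 at 0.005 mM reached into the range of the arrays at 1 mM.

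The miR169g precursor on chromosome 4 showed the same contrast between its flanks. Its 3'seq probe had -6.16, -5.72, -6.02 and -6.32 at 1 mM, against -7.43, -7.64, -7.79 and -7.36 at 0.005 mM, a change of 1.498 ± 0.14 (SE, adjusted p = 2.2e-05) without overlap. Its 5'seq probe had -5.83, -5.46, -5.56 and -6.03 at 1 mM, against -5.63, -7.56, -7.96 and -7.39 at 0.005 mM, and replicate 1 at 0.005 mM lay among the arrays at 1 mM. Its change was 1.42 ± 0.46 (SE, adjusted p = 0.022), and this call ended without replicate 2 at 1 mM, without any one of replicates 2, 3 and 4 at 0.005 mM, and with normexp and quantile normalization.

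The other miR169 precursors did not share this pattern, with 2 of 9 tested probes higher, 1 lower and 6 not called. For miR169a the 5'seq probe had -7.70, -7.44, -7.38 and -6.78 at 1 mM, against -9.80, -9.52, -9.32 and -8.06 at 0.005 mM, a change of 1.85 ± 0.37 (SE, adjusted p = 0.0020), although it was well above background on only 1 array at 0.005 mM. Its 3'seq probe had -4.19, -4.17, -4.26 and -4.16 at 1 mM, against -4.27, -4.53, -4.36 and -4.26 at 0.005 mM, a difference of 0.16 ± 0.06 (SE, adjusted p = 0.050) that was not called. The miR169o 5'seq probe changed by 0.54 ± 0.15 (SE, adjusted p = 0.0098), a call lost both with spike-in scaling and with no scaling. The lower one was the miR169e 5'seq probe, with -3.45, -3.14, -3.04 and -2.98 at 1 mM, against -2.86, -2.63, -2.33 and -2.33 at 0.005 mM, a change of -0.62 ± 0.15 (SE, adjusted p = 0.0051) without overlap. Not called were both flanks of miR169b (0.10 and 0.15), miR169c 5'seq (-0.14), miR169n 3'seq (0.27) and miR169p 3'seq (0.17).

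The miR166 family, which targets the HD-ZIP III transcription factors that pattern vascular tissue and organ polarity, had the most lower probes. Of its 39 probes 27 were tested, and 22 of them were lower, 1 was higher and 4 were not called. All 11 tested Mature probes were lower by at least 2-fold, with changes between -1.66 and -1.02. All 11 were also called lower with both normexp settings, but none by 2-fold there, with changes of -0.85 to -0.54 with quantile normalization and of -0.75 to -0.34 with 75th percentile scaling. Of the 16 tested flank probes 11 were lower. The Mature probes of miR166a, b, c, d, f and n had means between -5.61 and -5.34 at 1 mM. At 0.005 mM the means of these probes lay between -4.35 and -4.25. Members of this family share nearly all of the mature sequence, and whether their Mature probes read the same transcripts was not tested. The count of 22 of 27 takes each probe as a separate one.

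On chromosome 10 both flanks of miR166a were lower. Its 3'seq probe had -4.64, -4.84, -4.99 and -4.57 at 1 mM, against -3.22, -3.30, -3.12 and -3.10 at 0.005 mM, a change of -1.58 ± 0.10 (SE, adjusted p = 1.9e-06). At its 5'seq probe the levels were -5.25, -5.33, -5.52 and -5.11 at 1 mM, against -3.61, -3.70, -3.53 and -3.45 at 0.005 mM, a change of -1.73 ± 0.09 (SE, adjusted p = 8.8e-07). Neither probe's groups overlapped. The exception in the family was miR166h on chromosome 2, named here after its values were seen. Its 5'seq probe was higher, with -5.11, -5.20, -5.80 and -5.22 at 1 mM, against -6.72, -6.53, -6.19 and -6.32 at 0.005 mM and a change of 1.103 ± 0.17 (SE, adjusted p = 0.00046), while its Mature probe was lower by -1.46 ± 0.09 (SE, adjusted p = 2.2e-06). Not called was its 3'seq probe, at -0.43 ± 0.34 (SE, adjusted p = 0.27). In miR166b, miR166d and miR166e the 3'seq probe was lower and the 5'seq probe was not called.

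The miR156 family holds the SPL transcription factors in check and is known for keeping plants in the juvenile phase. Of its 33 probes 20 were tested, 2 were higher, 9 lower and 9 not called at 1 mM, so the share of lower probes in the whole family was near the 43.8% of all units. The lower probes lay mainly in precursors a to d, where 7 of 8 tested probes were lower by at least 2-fold, a grouping made after the values were seen. With normexp the same number was called lower, but just 3 (quantile normalization) or 2 (75th percentile scaling) by at least 2-fold. The median change of those 8 was -1.61, against -0.34 over the 12 tested probes of the other precursors. Both higher probes belonged to miR156f on chromosome 8, at 1.06 ± 0.16 (SE, adjusted p = 0.00034) for the 5'seq and 0.51 ± 0.13 (SE, adjusted p = 0.0066) for the 3'seq probe. Spike-in scaling and no scaling each ended the call of its 3'seq probe.

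The largest fitted decrease of any microRNA-named probe was at the 5'seq probe of miR156d on chromosome 2, with -6.69, -6.85, -6.81 and -6.51 at 1 mM, against -4.32, -4.32, -4.10 and -4.13 at 0.005 mM. It changed by -2.50 ± 0.09 (SE, adjusted p = 1.2e-07), with the groups far apart. Annotated with the same transcript, the 3'seq probe of miR156d had -0.98, -1.30, -1.496 and -1.55 at 1 mM, against -0.75, -1.103, -1.12 and -1.17 at 0.005 mM, and its difference of -0.30 ± 0.14 (SE, adjusted p = 0.090) was not called. On chromosome 1 the 5'seq probe of miR156a had -8.57, -8.55, -8.22 and -8.25 at 1 mM, against -6.54, -6.44, -6.24 and -6.44 at 0.005 mM and was well above background on no array at 1 mM. In the processed signal, with levels raised as for miR169i, it was 3.68-fold lower at 1 mM (adjusted p = 7.9e-07). With normexp its change was smaller, -0.53 (quantile normalization) or -0.32 (75th percentile scaling). The 3'seq probe of miR156a changed by -1.67 ± 0.20 (SE, adjusted p = 0.00011). The miR156c 5'seq probe had -7.72, -7.82, -6.72 and -7.77 at 1 mM, against -5.92, -5.73, -5.38 and -5.66 at 0.005 mM, a change of -1.84 ± 0.25 (SE, adjusted p = 0.00020), also without overlap. The related family miR529, which targets SPL genes as well, had 2 tested probes. Its 5'seq probe was lower by -1.23 ± 0.28 (SE, adjusted p = 0.0036), a call that ended with normexp and 75th percentile scaling, and its Mature probe was not called, at 0.17 ± 0.07 (SE, adjusted p = 0.063).

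All 7 tested probes of miR159, which targets GAMYB transcription factors, were called, 6 lower and 1 higher. In miR159a the 5'seq probe had -3.38, -3.27, -3.25 and -3.24 at 1 mM, against -2.25, -2.34, -2.29 and -2.28 at 0.005 mM, a change of -0.99 ± 0.04 (SE, adjusted p = 3.6e-07) with little spread in either group. In miR159c the 3'seq probe had -7.88, -8.60, -8.46 and -8.31 at 1 mM, against -6.23, -6.02, -6.15 and -6.10 at 0.005 mM, a change of -2.18 ± 0.14 (SE, adjusted p = 2.7e-06), and was well above background on only 1 array at 1 mM. For the miR159f 3'seq probe the levels were -7.67, -7.11, -8.09 and -7.73 at 1 mM, against -5.84, -5.83, -5.59 and -5.62 at 0.005 mM, a change of -1.93 ± 0.19 (SE, adjusted p = 2.4e-05) without overlap. The higher probe was miR159e 3'seq, at 0.64 ± 0.10 (SE, adjusted p = 0.00037), named after its value was seen. That call ended with spike-in scaling. In the related miR319, which targets TCP factors of leaf growth, only 1 probe was tested and it was not called (-0.06).

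In families that act in auxin signalling, most tested probes were lower or not called, as over the array, where 32.2% of all units were higher. The miR160 family targets auxin response factors and is known for its part in root cap formation in Arabidopsis. Of its 18 probes 15 were tested, 1 was higher, 7 were lower and 7 were not called, so the share of lower probes was near the 43.8% of all units. The 7 lower probes were flanks, out of 9 flanks tested, while of the 6 Mature probes 5 were not called. Without single arrays 5 to 7 of the flanks were lower, the miR160b pair being the one that lost its calls. The Mature probes of miR160a to d had means between -4.98 and -4.79 at 1 mM and between -4.86 and -4.64 at 0.005 mM. The miR160a 3'seq probe on chromosome 2 had -6.55, -6.92, -7.21 and -6.88 at 1 mM, against -5.05, -5.29, -5.16 and -5.32 at 0.005 mM, a change of -1.68 ± 0.13 (SE, adjusted p = 7.7e-06) without overlap. The other flank, the 5'seq probe, changed by -0.58 ± 0.11 (SE, adjusted p = 0.0017).

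The higher miR160 probe was the Mature probe of miR160e on chromosome 7, with -1.24, -1.59, -1.56 and -2.16 at 1 mM, against -2.17, -2.79, -2.83 and -2.80 at 0.005 mM. Its change was 1.01 ± 0.22 (SE, adjusted p = 0.0029), although the highest array at 0.005 mM and the lowest at 1 mM lay close together. The 5'seq probe of that precursor was lower, by -0.43 ± 0.10 (SE, adjusted p = 0.0048). The miR167 family targets other auxin response factors, and 27 of its 30 probes failed the filter. Of the 3 tested probes 2 were lower, against 43.8% of all units. One of these, miR167b 3'seq, had -8.04, -8.19, -8.30 and -7.57 at 1 mM, against -6.65, -6.86, -6.89 and -6.67 at 0.005 mM, a change of -1.26 ± 0.15 (SE, adjusted p = 9.2e-05). The other, miR167h 3'seq, had -9.29, -9.16, -9.27 and -9.17 at 1 mM, against -7.09, -7.44, -7.29 and -7.13 at 0.005 mM and was well above background on no array at 1 mM. In the processed signal, with levels raised as for miR169i, it was 2.68-fold lower (adjusted p = 2.2e-07). With normexp its change was smaller, -0.33 (quantile normalization) or -0.11 (75th percentile scaling). Its levels at 0.005 mM lay below the mean of the brightest random probe there, -6.84. The calls of miR167b 3'seq and miR167h 3'seq both ended with normexp and 75th percentile scaling.

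The miR393 family targets the TIR1 and AFB auxin receptors, and in Arabidopsis roots it is known to be induced by nitrate. Of its 4 tested probes 1 was higher, 1 was lower and 2 were not called, against 32.2% higher and 43.8% lower over all units. The miR393b 5'seq probe on chromosome 4 had -7.66, -9.21, -8.71 and -7.71 at 1 mM, against -7.18, -6.78, -6.59 and -5.18 at 0.005 mM, a change of -1.89 ± 0.50 (SE, adjusted p = 0.0086) with a wide spread in both groups, and the call ended with normexp and 75th percentile scaling. Its 3'seq probe had -6.81, -7.49, -8.24 and -7.92 at 1 mM, against -7.43, -7.54, -6.90 and -6.62 at 0.005 mM, a difference of -0.49 ± 0.33 (SE, adjusted p = 0.21). The 3'seq probe of the precursor named miR393, on chromosome 1, changed by 0.35 ± 0.11 (SE, adjusted p = 0.022). That call ended with no scaling, with quantile normalization alone or after normexp, with a robust fit and variance trend together and without either of 2 single arrays, and the sign turned with spike-in scaling. The 5'seq probe of miR393 was not called, at -0.07 ± 0.18 (SE, adjusted p = 0.74).

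The miR164 family restrains NAC transcription factors of lateral root formation. Of 10 tested probes 1 was higher, 2 were lower and 7 were not called. Both lower probes were the flanks of miR164a on chromosome 7, at -1.12 ± 0.11 (SE, adjusted p = 3.6e-05) and -0.85 ± 0.08 (SE, adjusted p = 1.7e-05), and the higher one was miR164d 3'seq, at 0.41 ± 0.07 (SE, adjusted p = 0.00080). Spike-in scaling and no scaling each ended that last call. The brightest tested probe of the family, miR164b 3'seq, had -0.48, -1.04, -1.70 and -1.60 at 1 mM, against -0.57, -1.04, -1.42 and -1.34 at 0.005 mM, with overlapping groups.

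For miR171, which targets GRAS transcription factors, 3 probes of 9 tested were higher, 4 lower and 2 not called, shares near the 32.2% and 43.8% of all units. Both flanks of miR171f on chromosome 3 were lower by the same amount. At the 3'seq probe the levels were -3.33, -3.49, -3.51 and -3.43 at 1 mM, against -1.498, -1.55, -1.48 and -1.65 at 0.005 mM, a change of -1.90 ± 0.06 (SE, adjusted p = 5.6e-08). At the 5'seq probe they were -3.61, -3.75, -3.91 and -3.74 at 1 mM, against -1.78, -1.85, -1.83 and -1.97 at 0.005 mM, a change of -1.90 ± 0.07 (SE, adjusted p = 1.5e-07). The spread within each group was small beside this gap. Both flanks of miR171g were lower too, by -0.79 ± 0.14 (SE, adjusted p = 0.00084) and -0.58 ± 0.15 (SE, adjusted p = 0.0082). With normexp and 75th percentile scaling the call of its 5'seq probe ended and the sign of its 3'seq probe turned. The higher probes belonged to miR171a and miR171h, with changes of 0.27, 0.28 and 0.36, and none of these 3 was called higher without scaling or with spike-in scaling.

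The families that act on the microRNA machinery itself had 1 called probe, while 76.1% of all units were called. The miR162 family targets DCL1, and none of its 3 tested probes was called. Its brightest, miR162a 5'seq, had -4.80, -4.81, -4.95 and -4.92 at 1 mM, against -4.76, -5.07, -5.17 and -5.00 at 0.005 mM. The miR168 family targets AGO1. In miR168a the 3'seq probe, the brightest of all microRNA-named probes, had 2.70, 2.54, 2.42 and 2.39 at 1 mM, against 2.87, 2.55, 2.58 and 2.50 at 0.005 mM, a difference of -0.11 ± 0.10 (SE, adjusted p = 0.33). Its 5'seq probe had 1.08, 1.03, 0.97 and 0.90 at 1 mM, against 1.07, 0.92, 0.96 and 0.95 at 0.005 mM, a difference of 0.02 ± 0.05 (SE, adjusted p = 0.80). The arrays of both groups overlapped in each case. The called probe was miR168b 5'seq, higher by 0.40 ± 0.11 (SE, adjusted p = 0.012), which lost its call with spike-in scaling, with no scaling and with normexp and quantile normalization.

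Among families known for responses to mineral supply, miR399 restrains PHO2, which limits phosphate uptake, and is induced by phosphate shortage. Of its 33 probes 11 were tested, 5 were higher, 1 was lower and 5 were not called. The higher ones were 45.5% of those tested, against 32.2% of all units, and the lower one 9.1%, against 43.8%. The higher probes changed by less than 2-fold. The largest of these, miR399h Mature on chromosome 5, had -4.18, -3.95, -3.76 and -3.94 at 1 mM, against -4.38, -4.37, -4.50 and -4.47 at 0.005 mM, a change of 0.47 ± 0.09 (SE, adjusted p = 0.0011), which ended with spike-in scaling. The others were miR399f Mature at 0.30 ± 0.09 (SE, adjusted p = 0.014), miR399g Mature at 0.28 ± 0.07 (SE, adjusted p = 0.0082), miR399i Mature at 0.31 ± 0.11 (SE, adjusted p = 0.032) and miR399d 3'seq at 0.34 ± 0.10 (SE, adjusted p = 0.016). None of these 4 was called with no scaling, and the sign of each turned when arrays were scaled to spike-in controls. The call of miR399d 3'seq also ended with a robust fit and variance trend together and with normexp and quantile normalization. The call of miR399i Mature ended under the same 2 alternatives, with quantile normalization, with the replicate number as a block and without any one of 6 of the 8 arrays.

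The lower miR399 probe changed more than any of these. On chromosome 5 the 5'seq probe of miR399c had -6.76, -6.83, -6.60 and -6.86 at 1 mM, against -5.14, -5.27, -4.92 and -5.21 at 0.005 mM, a change of -1.63 ± 0.09 (SE, adjusted p = 9.9e-07) without overlap. Not called were miR399d 5'seq (0.40), miR399d Mature (-0.26), miR399e Mature (0.13), miR399i 3'seq (0.17) and miR399k Mature (0.22).

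The families miR397, miR398, miR408 and miR528 are known for copper shortage, when they silence messenger RNAs of copper proteins. The miR398 family targets Cu/Zn superoxide dismutases. Of its 5 tested probes 3 were higher (60.0%, against 32.2% of all units). All 3 probes of miR398a on chromosome 10 were higher at 1 mM. Its 5'seq probe had -5.28, -4.94, -6.45 and -5.54 at 1 mM, against -6.58, -6.92, -6.83 and -6.89 at 0.005 mM, a change of 1.25 ± 0.29 (SE, adjusted p = 0.0041). The Mature probe had -5.48, -5.31, -6.41 and -5.76 at 1 mM, against -6.45, -6.88, -6.86 and -6.66 at 0.005 mM, a change of 0.97 ± 0.23 (SE, adjusted p = 0.0048). In both, the lowest array at 1 mM was replicate 3, which lay just above the highest array at 0.005 mM. The 3'seq probe had -5.02, -4.96, -6.24 and -5.52 at 1 mM, against -6.21, -6.53, -6.56 and -6.69 at 0.005 mM, a change of 1.06 ± 0.27 (SE, adjusted p = 0.0072), and there replicate 3 at 1 mM fell just below the highest array at 0.005 mM. The 2 tested probes of miR398b on chromosome 7 were not called, at 0.19 ± 0.10 (SE, adjusted p = 0.12) for the Mature and -0.11 ± 0.09 (SE, adjusted p = 0.30) for the 3'seq probe.

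For miR408, which targets plantacyanins and laccases, all 3 probes were tested and none was called. Its 3'seq probe had -0.41, -0.66, -0.83 and -0.82 at 1 mM, against -0.73, -1.02, -1.11 and -0.98 at 0.005 mM, a difference of 0.28 ± 0.11 (SE, adjusted p = 0.052). It was called higher under 10 of 22 alternatives, and its sign turned with spike-in scaling. The Mature probe differed by 0.21 ± 0.15 (SE, adjusted p = 0.24) and the 5'seq probe by -0.78 ± 0.39 (SE, adjusted p = 0.098). The miR528 family, which targets an ascorbate oxidase in rice, had 1 tested probe, with -4.18, -4.34, -4.07 and -4.36 at 1 mM, against -4.13, -4.31, -4.36 and -4.19 at 0.005 mM. Its difference was 0.01 ± 0.08 (SE, adjusted p = 0.88). No miR397 probe was tested.

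The miR396 family targets growth-regulating factors, and 2 of its 5 tested probes were lower (40.0%, near the 43.8% of all units). The miR396d 3'seq probe had -6.13, -6.33, -6.31 and -6.07 at 1 mM, against -5.73, -5.94, -5.97 and -6.11 at 0.005 mM, a change of -0.27 ± 0.09 (SE, adjusted p = 0.027) with overlapping groups. That call ended with normexp and quantile normalization, with a robust fit and variance trend together and without any one of 4 arrays, and with normexp and 75th percentile scaling the sign turned. The other was miR396b 3'seq, at -0.86 ± 0.07 (SE, adjusted p = 1.1e-05), a call that also ended with normexp and 75th percentile scaling. In miR394, which targets an F-box protein, the Mature probe was tested and not called (0.02).

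The remaining families are given without a role. On chromosome 12 the 5'seq probe of miR419 was among the 5 brightest of all microRNA-named probes, with 0.98, 1.44, 1.74 and 1.60 at 1 mM, against -0.75, -0.58, -0.29 and -0.38 at 0.005 mM. It changed by 1.94 ± 0.17 (SE, adjusted p = 1.4e-05), and every array at 1 mM exceeded every array at 0.005 mM by a wide margin. The Mature and 3'seq probes of miR419 were well above background on no array. One probe was tested and higher in each of miR416 (1.08 ± 0.20 (SE, adjusted p = 0.0013)), miR418 (0.35 ± 0.10 (SE, adjusted p = 0.011)) and miR440 (0.21 ± 0.05 (SE, adjusted p = 0.0054)). The call of miR418 ended without scaling and the sign of miR440 turned there, and with spike-in scaling the signs of both turned. In miR441 the 5'seq probe of miR441b had -1.49, -1.38, -1.39 and -1.35 at 1 mM, against -1.67, -1.61, -1.62 and -1.53 at 0.005 mM, a change of 0.21 ± 0.05 (SE, adjusted p = 0.0034). Its sign turned without scaling and with spike-in scaling. The miR441c 5'seq probe was lower by -0.64 ± 0.05 (SE, adjusted p = 5.0e-06).

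The miR439 family had 14 tested probes, 2 higher, 2 lower and 10 not called, with changes between -0.40 and 0.50, and each of its 4 calls was lost under some alternative. The probes called higher and lower were 14.3% each of those tested, below the 32.2% and 43.8% of all units. Both higher calls ended without scaling and with spike-in scaling, and the signs of both lower probes turned with normexp and 75th percentile scaling. Its members are named from several chromosomes, yet 14 of its 27 probes were annotated with transcripts of 1 locus, Os01g0540800. The brightest, miR439h 5'seq, had -4.93, -5.10, -5.22 and -5.32 at 1 mM, against -4.81, -5.08, -5.15 and -5.17 at 0.005 mM. Among all 4 tested probes of miR531 none was called. Its brightest, a Mature probe from chromosome 11, had -1.79, -1.84, -1.91 and -2.08 at 1 mM, against -1.87, -2.15, -2.12 and -2.17 at 0.005 mM. The miR414 family had 1 lower probe of 3, the 5'seq probe at -0.19 ± 0.05 (SE, adjusted p = 0.0056), and miR535 1 lower probe of 2, the 3'seq probe at -0.60 ± 0.18 (SE, adjusted p = 0.013). The single tested probe of miR442 was not called (-0.11).

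Ordinary probes for the same annotated loci gave a second view of some precursors. The 96 probes with a RAP transcript pointed to 42 loci, of which 21 had an ordinary probe and 14 had tested probes of both kinds. In 8 of these 14 the ordinary probe that stood for the locus was called, 7 lower and 1 higher, and in none was a microRNA-named probe called the other way. Over all units of the array 76.1% were called and 43.8% were lower, so these few loci were not called more often than others. In 5 loci both kinds were lower. Locus Os02g0180800, annotated for miR156d, had -1.14, -1.31, -1.53 and -1.44 at 1 mM, against 0.87, 0.72, 0.82 and 0.87 at 0.005 mM, a change of -2.18 ± 0.09 (SE, adjusted p = 1.9e-07), as at its 5'seq probe. Locus Os01g0187200, annotated for miR156b and miR156c, changed by -1.27 ± 0.06 (SE, adjusted p = 6.2e-07), and Os01g0507000, annotated for miR159a, by -1.37 ± 0.04 (SE, adjusted p = 3.7e-08).

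For Os02g0165200, annotated for miR160a, the ordinary probe had -6.69, -8.03, -6.91 and -7.03 at 1 mM, against -4.14, -4.32, -4.12 and -4.22 at 0.005 mM, a change of -2.97 ± 0.26 (SE, adjusted p = 1.5e-05). Locus Os12g0604000, annotated for miR167h, changed by -0.79 ± 0.22 (SE, adjusted p = 0.0096). Its ordinary probe was well above background on only 1 array at 1 mM and 3 at 0.005 mM. The means of that probe, -8.09 and -7.30, lay below those of the brightest random probe, -6.64 and -6.84. In 2 loci the ordinary probe was lower with no microRNA-named probe called, Os05g0339300 for miR164b (-0.66) and Os06g0649600 for miR156h (-0.68). The locus that was higher, Os02g0602900 for miR162a, changed by 0.45 ± 0.10 (SE, adjusted p = 0.0037) while neither of its microRNA-named probes was called. At Os06g0676300, annotated for miR160b, both flank probes were lower, calls that ended under 6 (3'seq) and 9 (5'seq) of 22 alternatives, normexp with 75th percentile scaling among them. Its brighter ordinary probe was not called, at 0.20 ± 0.11 (SE, adjusted p = 0.13), and the dimmer, fitted as a unit of its own, was higher by 0.56 (adjusted p = 0.0089). At Os04g0684100, annotated for miR393b, the 2 ordinary probes disagreed. The brighter was not called, at -0.26 ± 0.20 (SE, adjusted p = 0.26), and the dimmer, fitted in the same way, changed by -2.52 (adjusted p = 1.8e-06). At Os02g0129700, annotated for miR168a, the brighter was not called, at 0.14 ± 0.09 (SE, adjusted p = 0.18), and the dimmer was lower by -0.41 (adjusted p = 0.0043).

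The authors' deposited table of differing features listed 180 of the 1020 spots of these probes (17.6%). It held both spots of 74 probes, and all 74 were called here in the direction of that table. For 32 probes it listed 1 of the 2 spots. Of the probes called here, 14 had no spot in the authors' deposited table and 14 had 1 spot there. The 5'seq probe of miR169m stood in the authors' deposited table with log2 ratios of 2.38 at both spots.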

How the data were processed

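Per the labels, total RNA of whole roots was labelled with a low-input one-colour kit and hybridised to 8 rice arrays, 4 per concentration. In the deposited scans each spot has a linear intensity, from which Agilent Feature Extraction had subtracted background (version 10.10.1.1 in the headers). The authors' deposited table gives each listed feature a log2 ratio with its p-value and q-value. A further 8 columns of it, scaled signals whose names match no sample title, were not used.

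Control spots and outlier-flagged spots were left out, log2 of the processed signal was taken, the array's 75th percentile was subtracted, and the spots of a probe were averaged. A probe passed when 1 or both of its 2 spots were well above background on 4 or more of 8 arrays. The brightest probe stood for a locus, and microRNA-named probes stood for themselves. Two-sided moderated tests came from limma 3.58.1 (R 4.3.3, lmFit and eBayes) and were adjusted by Benjamini-Hochberg over all 24969 units, with a threshold of 0.05. For a probe at background on all arrays of 1 concentration, the fold used the dimmest signal well above background there for any lower level. Some probes not well above background were brighter than that signal, so the fold is not a strict lower bound. It holds for the processed signal with 75th percentile scaling only, and with normexp the changes of these probes were smaller.

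Named probes were the 12 largest called increases and 12 largest decreases without overlap, the brightest probe of families with at least 3 tested probes, all tested probes of families 169, 393, 395, 397, 398, 399, 408, 444, 528 and 827, and the 5 brightest, 70 in all. No probe among the 510 bore the number 444 or 827. The members and lists were chosen with earlier results of these data known. The normexp alternatives (offset 50) used median signals, as the files carry no mean signals. No table used here names the RAP loci, so genes of the microRNA machinery and markers of root or other tissue were not assessed. The functions were tested on simulated data. The number of arrays limits the precision.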

Additional observations from a re-analysis of the deposited data

Results flagged for a closer look

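Of 140 groups of 4 levels, those of the 70 named probes at each concentration, 8 held an array that stood far from the other 3, with a gap to its nearest neighbour, as a share of the group's range, above Dixon's critical value. Chance gives about 1 in 20 such groups. For the 3'seq probe of miR156a, replicate 1 at 0.005 mM had a level of -5.20, against -6.14 to -6.00 on the other 3 arrays of that concentration (ratio 0.855). The 5'seq probe of miR156c read -6.72 on replicate 3 at 1 mM and -7.82 to -7.72 on the other 3 (ratio 0.909). For the 3'seq probe of miR156d, replicate 1 at 0.005 mM had a level of -0.75, against -1.17 to -1.10 on the other 3 arrays of that concentration (ratio 0.844). The Mature probe of miR160e read -2.17 on replicate 1 at 0.005 mM and -2.83 to -2.79 on the other 3 (ratio 0.943). For the 3'seq probe of miR169l, replicate 4 at 1 mM had a level of -6.15, against -5.60 to -5.57 on the other 3 arrays of that concentration (ratio 0.961). The 5'seq probe of miR169l read -5.93 on replicate 1 at 0.005 mM and -7.27 to -7.07 on the other 3 (ratio 0.849). For the Mature probe of miR398b, replicate 1 at 0.005 mM had a level of -4.48, against -4.81 to -4.77 on the other 3 arrays of that concentration (ratio 0.875). The Mature probe of miR408 read -1.89 on replicate 1 at 0.005 mM and -2.40 to -2.33 on the other 3 (ratio 0.868). In 6 of the 8 the array was replicate 1 at 0.005 mM, and each time it was the highest of its group. Without that array 50 probes were higher and 62 lower at 1 mM, in place of 39 and 63. Over all 24969 units 7895 were higher and 10651 lower without it, in place of 8050 and 10945.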

How the results depend on the processing

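The 22 alternatives changed the scaling, the background correction, the filter, the unit, the variance model, the array weights or the replicate block, or left out 1 array. The last 2 filters, both spots well above background and brighter than every random or artificial control probe, were chosen after seeing the data. Without scaling between arrays 22 probes were higher, beside 4883 of all 24969 units, and 12 were higher by at least 2-fold. With spike-in scaling the counts were 20 higher, 97 lower and 12 at least 2-fold higher. Of all units 4021 were higher and 16078 lower there. With normexp and 75th percentile scaling 69 probes were higher, 4 at least 2-fold higher and 8 at least 2-fold lower. Of all units 8996 were higher there. With normexp and quantile normalization the at least 2-fold counts were 2 higher and 9 lower, and probes well above background on all 8 arrays gave 11 at least 2-fold higher. Normexp moved 25 of the 70 named changes by over 1.5 times in each setting, and the cause was not tested. Without single arrays 36 to 50 probes were higher and 59 to 67 lower, and 95 to 100 of the 102 calls held. Of all units 7660 to 7978 were higher and 10491 to 10987 lower in these fits. Families with a called probe numbered 20 to 26 over all alternatives.

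Of the 70 named probes 43 were called, and 30 of these kept direction and call under all alternatives that kept them. Of the 27 not called, 22 gained a call with the same sign under at least 1 alternative. Signs that turned were mostly those of small differences not called, and their causes were not tested. Without scaling the changes became -0.14 for miR162a 5'seq, -0.25 for miR168a 5'seq, -0.11 for miR169a 3'seq, -0.12 for miR169b 3'seq, -0.17 for miR169b 5'seq, -0.10 for miR169p 3'seq, -0.078 for miR398b Mature, -0.14 for miR399e Mature, -0.098 for miR399i 3'seq, -0.054 for miR399k Mature, -0.058 for miR408 Mature, -0.20 for miR414 Mature, -0.063 for miR441b 5'seq, -0.26 for miR528 3'seq and -0.098 for miR531 Mature. With spike-in scaling they became -0.25 for miR162a 5'seq, -0.36 for miR168a 5'seq, -0.22 for miR169a 3'seq, -0.23 for miR169b 3'seq, -0.28 for miR169b 5'seq, -0.11 for miR169n 3'seq, -0.22 for miR169p 3'seq, -0.034 for miR393 3'seq, -0.19 for miR398b Mature, -0.040 for miR399d 3'seq, -0.25 for miR399e Mature, -0.084 for miR399f Mature, -0.099 for miR399g Mature, -0.21 for miR399i 3'seq, -0.071 for miR399i Mature, -0.16 for miR399k Mature, -0.10 for miR408 3'seq, -0.17 for miR408 Mature, -0.31 for miR414 Mature, -0.17 for miR441b 5'seq, -0.37 for miR528 3'seq and -0.21 for miR531 Mature. With normexp and 75th percentile scaling they became 0.12 for miR169c 5'seq, 0.11 for miR393 5'seq, 0.10 for miR393b 3'seq, 0.031 for miR396d 3'seq, 0.12 for miR398b 3'seq, 0.18 for miR399d Mature, 0.078 for miR408 5'seq and 0.034 for miR439h 5'seq. For miR168a 5'seq the change was -0.028 with quantile normalization and -0.014 with normexp and quantile normalization. Without single arrays, the ranges that crossed 0 were -0.012 to 0.047 for miR168a 5'seq, -0.12 to 0.38 for miR169p 3'seq, -0.042 to 0.055 for miR528 3'seq, -0.23 to 0.059 for miR393 5'seq and -0.35 to 0.063 for miR164b 3'seq.

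Samples of the 2 concentrations share replicate numbers. Correlations of the deviations of same-numbered arrays from their group means were 0.32, -0.0077, 0.103 and 0.075 for numbers 1 to 4, so the numbers were not taken to pair them. Of the 8 arrays 5 correlated best with the array of their own number. With the number as a block 53 probes were higher and 74 lower, beside 8109 and 11014 of all 24969 units. Among the named probes 1 call ended with it (miR399i Mature) and 11 were gained.

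At these signals 38 of the 182 tested probes were no brighter than the brightest random probe, and 328 of the 510 probes were not tested. With no filter all 510 were fitted, and 52 were higher and 80 lower, of which 32 were not called with the filter. Of the 30259 units fitted then, 8261 were higher and 10998 lower.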

Other observations

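Over the 182 tested probes, the array of replicate 1 was the highest of its group for 76 probes at 1 mM and for 86 at 0.005 mM, and for 52 probes at both. The array of replicate 2 was the highest for 38 probes at 1 mM and for 8 at 0.005 mM. Replicate 1 also had the largest share of microRNA-named spots well above background at 1 mM (39.4%), while at 0.005 mM replicate 4 had it (37.2%).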
